A study of Mus musculus with 24 samples.

Results

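mmu-miR-423-5p and mmu-miR-423-3p are the mature miRNAs cut from the 5′ and the 3′ arm of 1 hairpin, and here they were followed in extracellular vesicles (EVs) from mouse serum after orthopedic surgery. They were taken by name from the table of mature miRNA counts and are 2 of its 1966 rows. Both had been selected on results of these same data, namely higher counts at 24 h and 72 h after surgery, so their levels at these times against Control or S6h are given as a description and carry no test. The comparisons S6h against Control and S72h against S24h were tested, although they reuse libraries that selected the miRNAs.

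The animals were wild type male C57BL/6 mice of 14 to 16 weeks, in 4 groups of 6 with 1 library per mouse. Mice in the S6h, S24h and S72h groups had an open stabilized tibia fracture under isoflurane and buprenorphine and were bled 6, 24 or 72 h later, and S24h and S72h mice also received analgesia every day. Control mice received saline and no operation. They were the controls matched to the 6 h animals, and separate controls for the later times were not analysed here. Surgery, time, anesthesia, analgesia and animal set therefore cannot be told apart in S24h and S72h against Control. In S6h against Control, surgery, anesthesia and analgesia cannot be told apart either. EVs were isolated from whole serum, so fewer EVs that carry a miRNA and fewer copies of it per EV cannot be told apart.

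A miRNA hairpin is cut from its transcript by Drosha and then by Dicer into a duplex of both arms. Usually 1 strand is loaded into an Argonaute protein and the other is degraded, and the loaded strand finds its target mRNAs mainly through its seed, bases 2 to 8. miR-423 is expressed in many tissues, its 5p arm has been studied in blood as a marker of heart failure, and its 3p arm is in use as a reference for serum miRNA measurements.

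The sequences are shown because the arms differ in seed and because their distance from other miRNAs bears on how reads are assigned. They are the RefSeq sequences for GRCm38.p6, written 5′ to 3′ with the seed in capitals.
mmu-miR-423-5p: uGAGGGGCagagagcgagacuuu
mmu-miR-423-3p: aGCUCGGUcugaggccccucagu
The hairpin is printed with both arms in capitals, and 13 bases lie between them.
Mir423 hairpin: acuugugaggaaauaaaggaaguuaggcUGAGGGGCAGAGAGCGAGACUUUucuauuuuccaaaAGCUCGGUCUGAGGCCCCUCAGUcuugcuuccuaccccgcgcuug
The hairpin lies at chr11:77078064-77078172 on the minus strand, the 5p arm at chr11:77078122-77078144 and the 3p arm at chr11:77078086-77078108. The gene Mir423 (ENSMUSG00000065518.2) sits inside Nsrp1 (ENSMUSG00000037958.13), a protein coding gene for a splicing regulator on the same strand. No exon of the Nsrp1 transcripts that span the hairpin overlaps it, so the position is intronic. Each arm was found in 1 hairpin of the reference only. The closest other mature miRNA differed from a 20-base window of mmu-miR-423-5p by at least 5 bases (mmu-miR-7653-5p), and from one of mmu-miR-423-3p by at least 7 (mmu-miR-12178-3p). The seed GAGGGGC is shared by mmu-miR-6921-5p, which had 0 counts in all 24 libraries, and the 3p seed by none of the 1675 miRNAs with a RefSeq sequence. Both arms have 23 bases, and both are rich in G and C, with 56.5% in mmu-miR-423-5p and 65.2% in mmu-miR-423-3p against a median of 47.6% over the 220 tested miRNAs with a sequence. Of these, 48 had a higher GC content than the 5p arm and 5 a higher one than the 3p arm.

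Libraries held between 63956 and 471801 counts, with medians of 117578 in Control, 177468 in S6h, 75030 in S24h and 94428 in S72h, so a single read was worth 2.12 to 15.6 CPM, the count scaled to a common column total. Of the 1966 miRNAs, 252 reached 10 CPM in at least 12 libraries and were tested. In some libraries miRNAs of a single tissue took a large share of the counts. The summed level of the skeletal muscle list reached 265491 CPM in S6h replicate 4 and 237383 CPM in S72h replicate 1, and that of the liver list 306312 CPM in S72h replicate 4. The red cell list had a median of 135836 CPM in Control, 116438 in S6h, 64401 in S24h and 61879 in S72h.

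Both arms were abundant in every library, and both had their highest level in S24h and their lowest median in S6h. mmu-miR-423-5p had 539 to 3751 counts and mmu-miR-423-3p 185 to 2045 counts, far above the limit of 3 counts that a count of 0 allows. By mean CPM, the 5p arm ranked 26th of all miRNAs in Control, 34th in S6h, 12th in S24h and 17th in S72h, and the 3p arm 46th, 54th, 26th and 27th.

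The level of mmu-miR-423-5p in Control ran from 5684 to 15247 CPM with a median of 11134, and its mean was 10523 ± 3216 CPM (SD, n = 6). In S6h it ran from 4519 to 10961 CPM with a median of 5858, and all 6 values were below the Control median. In S24h it ran from 19347 to 27969 CPM with a median of 22958. Every S24h mouse thus had a higher level than any Control or S6h mouse, and the values were close to each other, with a coefficient of variation of 12.6% against 30.6% in Control, 35.7% in S6h and 34.2% in S72h. In S72h the level ran from 7605 to 24046 CPM with a median of 15861, and 4 of 6 mice were above the highest Control. The order of medians was S24h, S72h, Control and S6h, and each pair of neighbors in this order overlapped.

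mmu-miR-423-3p followed the same order at a lower level. In Control it ran from 1378 to 6497 CPM with a median of 4287, and in S6h from 2252 to 5049 CPM with a median of 2910. In S24h it ran from 7562 to 15364 CPM with a median of 10234. All 6 S24h values were above all Control and S6h values, as for the 5p arm. In S72h it ran from 4384 to 12714 CPM with a median of 7987, and 5 of 6 mice were above the highest Control. The coefficient of variation of the 3p arm was 27.6% in S24h, 41.7% in Control, 31.3% in S6h and 33.7% in S72h, so the S24h mice were less close to each other than for the 5p arm. Of the 252 tested miRNAs, 6 (2.38%) were higher in all S24h than in all Control libraries and 12 (4.76%) higher in all S24h than in all S6h libraries. Both arms of miR-423 were among them, which the selection itself favors.

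**Figure D1:**
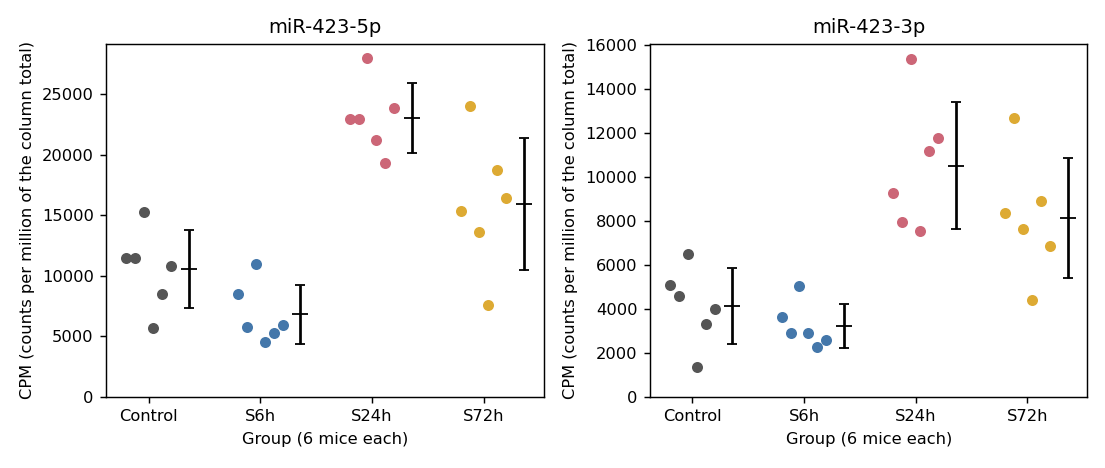
Level of each miR-423 arm in CPM (vertical axis, linear from 0) in 24 libraries, 6 mice in each group. Points are mice and bars are mean ± SD; all S24h points of both arms lie above all Control and S6h points, while S72h overlaps its neighbors, from 7605 to 24046 CPM for the 5p arm.

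Expressed as edgeR log2 fold changes, the level in S24h over Control was 0.97 (SE 0.26) for mmu-miR-423-5p and 1.18 (SE 0.29) for mmu-miR-423-3p, while the median of all tested miRNAs was -0.21. Over S6h it was 1.55 (SE 0.26) for 5p and 1.49 (SE 0.29) for 3p, beside a median of -0.23. In S72h the 5p arm was at 0.63 (SE 0.26) over Control and the 3p arm at 1.02 (SE 0.29), with a median of -0.06 for all. Against S6h the S72h values were 1.22 (SE 0.26) and 1.33 (SE 0.29) with a median of 0.04. These differences are relative to the other miRNAs in the library. When libraries were instead scaled to 6 serum reference miRNAs, a list that contains mmu-miR-484 and mmu-miR-191-5p, the S72h over Control difference was 0.15 for 5p and 0.59 for 3p, and that over S6h was 0.60 and 0.71. The reference list itself had a median summed level of 61028 CPM in Control, 53910 in S6h, 75477 in S24h and 84710 in S72h. Within it, mmu-miR-191-5p alone had a median of 37169 CPM in Control, 27028 in S6h, 56675 in S24h and 62872 in S72h.

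**Figure D2:**
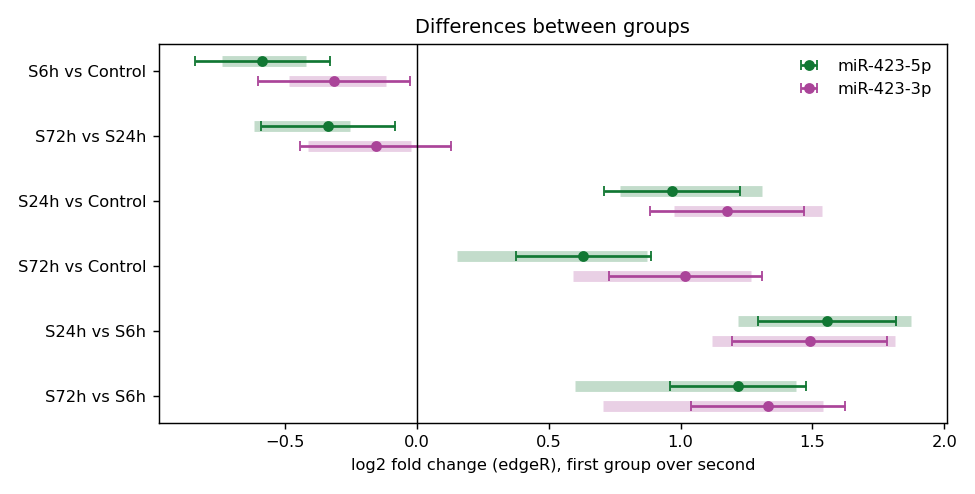
edgeR log2 fold change of both miR-423 arms (horizontal axis) in 6 comparisons of groups of 6 mice. Points are the fitted values, thin bars ± 1 SE and pale bars the range over other scalings, filters, tools and left-out libraries; S24h and S72h lie above 0 against Control and S6h in both arms, down to 0.15 for the 5p arm in S72h over Control.

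The first tested comparison asked whether the arms had already moved 6 h after surgery. mmu-miR-423-5p was lower in S6h than in Control by a log2 difference of -0.59 (SE 0.26, 95% interval -1.11 to -0.07), which did not pass the adjustment over all tested miRNAs (edgeR, adjusted p = 0.991). mmu-miR-423-3p differed by -0.31 (SE 0.29, interval -0.90 to 0.27, edgeR adjusted p = 0.991). With 1 library left out, the 3p difference ran from -0.49 (without Control replicate 4) to -0.14 (without Control replicate 3). Scaled to the serum reference miRNAs it was -0.12, with the 5p arm at -0.45. No miRNA was called in this comparison by edgeR (0 of 252, 0%), 9 had an unadjusted p under 0.05, and DESeq2 called 0. The skeletal muscle list differed in the same libraries, with a median summed level of 117926 CPM in S6h against 53278 in Control, although none of its 5 tested members was called. The liver list was at 15669 CPM in S6h against 76635 in Control. Their part in the lower share of miR-423 was not tested.

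The second tested comparison was between 72 h and 24 h. Here mmu-miR-423-5p was at -0.34 (SE 0.26, interval -0.86 to 0.18, edgeR adjusted p = 0.721) and mmu-miR-423-3p at -0.16 (SE 0.29, interval -0.74 to 0.43, adjusted p = 0.986). With 1 library left out, the 3p difference ran from -0.28 (without S72h replicate 2) to -0.03 (without S24h replicate 3). After subtraction of a line fitted on GC content, which also takes out the overall shift of the miRNAs, it was -0.02. Scaled to column totals it was -0.37 with the 5p arm at -0.53, and scaled to the serum reference miRNAs -0.41 with the 5p arm at -0.62. By CPM of the column total, the 5p level was below the lowest S24h value in 5 of 6 S72h mice, and the 3p level in 2 of 6. On log2 CPM after TMM scaling, minus the mean of all libraries, S72h replicate 1 also passed the lowest S24h value for 5p (0.63 against 0.54). edgeR called 1 of 252 miRNAs (0.397%) and DESeq2 4, neither arm among them. The lowest 5p level of the group by column total, 7605 CPM, was in S72h replicate 4, the library with 306312 CPM of liver miRNAs. After TMM scaling the lowest was S72h replicate 3 (-0.10 against 0.05 in replicate 4).

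The balance of the arms does not depend on the library size, since both are counted in the same library. In all 24 libraries the 5p arm had the most reads, 1.55 to 4.12 times those of the 3p arm. It made up 69.2% to 80.5% of miR-423 counts in Control (median 71.6%), 60.8% to 70.0% in S6h (median 69.2%), 63.4% to 74.3% in S24h (median 69.0%) and 63.4% to 70.5% in S72h (median 65.1%). The groups overlapped, and both Control and S72h held values near 70%. The highest share, 80.5% (95% Wilson interval 77.8% to 82.9%), came from Control replicate 4 with 763 and 185 counts, and the lowest, 60.8% (59.1% to 62.4%), from S6h replicate 4. These intervals cover counting error only. Counting error alone gives an SD of 0.040 to 0.118 in the log2 ratio of a library, while mice of a group differed by an SD of 0.18 to 0.32.

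The mean log2 ratio of 5p to 3p was 1.42 ± 0.32 in Control, 1.07 ± 0.23 in S6h, 1.16 ± 0.32 in S24h and 0.96 ± 0.18 in S72h (SD, n = 6 each). In S6h it was lower than in Control by a difference of -0.36 (SE 0.16, 95% interval -0.75 to -0.06), and all 6 S6h values were below the Control median (exact two-sided permutation test, p = 0.0152, adjusted over the 2 tested comparisons 0.0303). With same-numbered mice taken as pairs, an exact sign-flip test gave p = 0.0625. Among the 50 hairpins with both arms tested, 2 (4%) had an exact p under 0.05 in this comparison, miR-423 and miR-133a, and after adjustment over the 50 hairpins the exact p of miR-423 was 0.487, so the difference did not pass the threshold over all hairpins. Its size rested partly on Control replicate 4, without which the difference was -0.24 (exact permutation p = 0.0303), and the difference of the group medians was -0.17. Between S72h and S24h the ratio differed by -0.21 (SE 0.15, interval -0.56 to 0.12, exact permutation p = 0.199), beside 2 of 50 hairpins (4%) with an exact p under 0.05. Without S24h replicate 2 this difference was -0.13, and from counts summed over each group -0.12. Given without a test, the difference from Control was -0.26 (SE 0.18) in S24h and -0.47 (SE 0.15) in S72h, where all 6 values were below the Control median. Without Control replicate 4 they were -0.14 and -0.34.

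**Figure D3:**
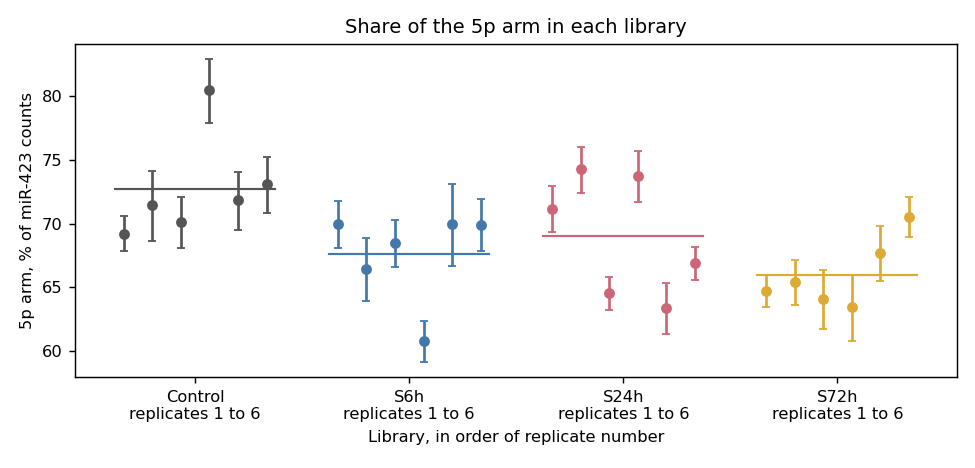
Share of the 5p arm in the miR-423 counts of each library (vertical axis, %, not starting at 0), in order of replicate number within each group of 6 mice. Bars are 95% Wilson intervals for counting error and horizontal lines are group means; Control replicate 4 stands highest at 80.5% and S6h replicate 4 lowest at 60.8%.

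Compared with other hairpins, the arms of miR-423 kept a narrow ratio. Its within-group SD of the log2 ratio was 0.267, and 0 of the other hairpins among the 50 had a smaller one. In most of these hairpins 1 arm is rare, so that counting error enters their SD more than that of miR-423. The next smallest SDs were 0.595 for miR-126a and 0.705 for miR-151, with medians of 73 and 99.5 counts in the rarer arm. let-7d was the only other hairpin with a median of at least 100 counts in both arms (1484.5 for 5p and 334 for 3p, against 1441 and 607.5 for miR-423). Its within-group SD was 0.943, and the Spearman correlation of its arms over the 24 libraries was -0.21, while that of the miR-423 arms was 0.95. In 34 of the 50 hairpins the 5p arm had more counts, and 6 had a mean ratio nearer to 1 than miR-423. These are descriptions, since both arms share library, depth and scaling.

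**Figure D4:**
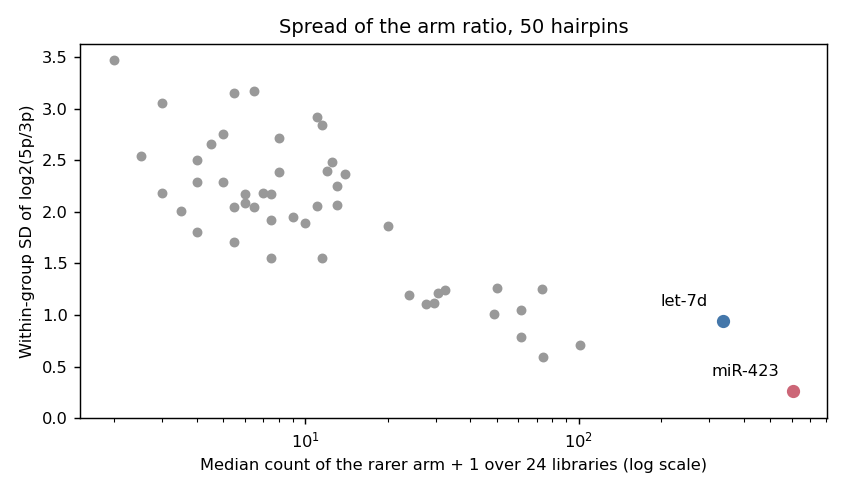
Within-group SD of the log2 ratio of 5p to 3p counts (vertical axis) against the median count of the rarer arm plus 1 (horizontal axis, log scale) for 50 hairpins. Each point is a hairpin over 24 libraries; miR-423 has the lowest SD, 0.267, and the highest count of the rarer arm, and let-7d has 0.943.

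Over the 24 libraries, the miRNAs with the profile most like that of mmu-miR-423-5p, by Pearson's r of log2 CPM after TMM scaling, were mmu-miR-320-3p (0.94), mmu-miR-484 (0.93), the 3p arm (0.93), mmu-miR-221-3p (0.90) and mmu-miR-191-5p (0.84). For mmu-miR-423-3p they were the 5p arm (0.93), mmu-miR-320-3p (0.92), mmu-miR-484 (0.91), mmu-miR-221-3p (0.91) and mmu-miR-191-5p (0.91). After the group means were taken out, the partner arm came first for both, with r = 0.84, so the arms also moved together among mice of a group. The lead for 3p was small, since mmu-miR-191-5p had 0.835 with it against 0.844 for the partner arm, and 0.80 with 5p. mmu-miR-484 then had 0.81 with 5p and 0.79 with 3p, and mmu-miR-320-3p 0.78 and 0.80. All these values share libraries and scaling factors and are descriptions.

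The level of mmu-miR-320-3p ran from 3799 to 10353 CPM in Control, from 3490 to 7553 in S6h, from 14594 to 30025 in S24h and from 6685 to 17103 in S72h, so that S24h was again above all Control and S6h mice. mmu-miR-484, often used as a reference in serum, ran from 954 to 5219 CPM in Control, from 1299 to 3017 in S6h and from 4908 to 8877 in S24h. Here S24h overlapped Control but not S6h. In Control replicate 4 both arms of miR-423 had the lowest level of their group. The serum reference and platelet lists, which share mmu-miR-191-5p, were lowest there too, at 36839 and 39752 CPM. The liver list was at 161878 CPM in this library, but also at 170548 CPM in Control replicate 1 and 138913 CPM in Control replicate 6, where mmu-miR-423-5p was at 11432 and 10836 CPM, near the Control median. Their part in the level of miR-423 was not tested.

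**Figure D5:**
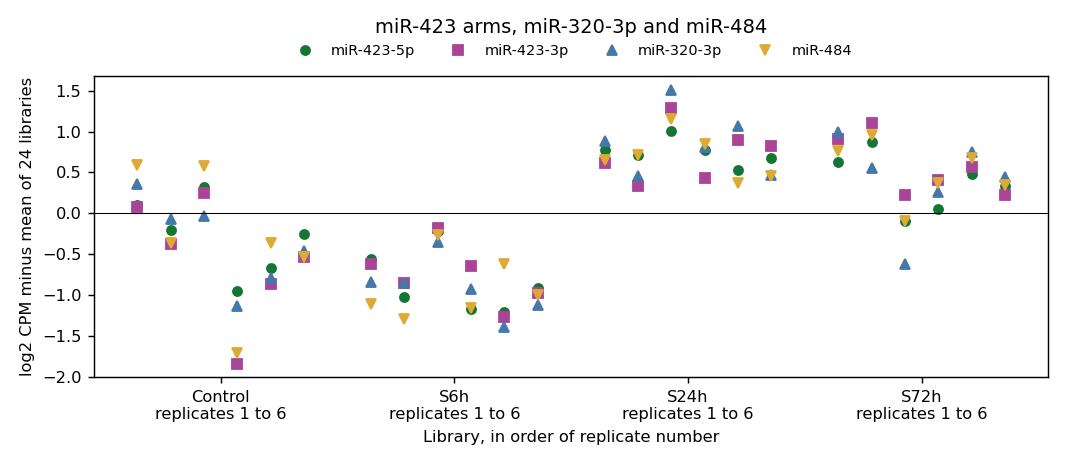
log2 CPM after TMM scaling, minus the mean of all 24 libraries (vertical axis), for both miR-423 arms, mmu-miR-320-3p and mmu-miR-484 in each library, in order of replicate number within each group of 6 mice. The arms correlate with r = 0.93 over the libraries but lie apart in Control replicate 4, and S24h points lie above 0 for all 4 miRNAs.

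Lists of blood cell and tissue miRNAs were set beside these results to show what else moved in the same libraries. In S6h against Control and in S72h against S24h, none of the tested members of the serum reference, red cell, platelet, skeletal muscle, liver and leukocyte lists was called by edgeR. In S24h against Control, edgeR called 3 of 6 red cell miRNAs lower, 2 of 6 serum reference miRNAs lower and 1 of 5 platelet miRNAs lower, and none of these lists had a member called higher. Over all 252 tested miRNAs, 20 (7.94%) were called lower and 10 (3.97%) higher in this comparison. The platelet list had a median summed level of 71412 CPM in Control, 71484 in S6h, 83586 in S24h and 89995 in S72h. It shares mmu-miR-191-5p with the serum reference list. The median of this miRNA was 37169 CPM in Control, 56675 in S24h and 62872 in S72h. That of mmu-miR-24-3p was 28871, 16729 and 18584, and that of mmu-miR-199a-3p 2581, 604 and 1856. Other members, mmu-miR-126a-3p and mmu-miR-126a-5p, were at 2995 and 510 in Control and at 5803 and 874 in S24h. The leukocyte list stayed between medians of 7572 and 9762 CPM. The skeletal muscle list had a median of 33230 CPM in S24h against 53278 in Control and 117926 in S6h, and the liver list 19621 CPM in S24h against 76635 in Control and 15669 in S6h. In S24h against S6h, the comparison with the largest differences of miR-423, edgeR called 3 of 5 skeletal muscle miRNAs lower and 1 of 6 red cell miRNAs lower. It called 2 of 6 serum reference miRNAs higher and 2 lower, 1 of 5 platelet miRNAs higher and 2 lower, 1 of 5 leukocyte miRNAs higher and 1 lower, and neither of 2 liver miRNAs. The platelet miRNA called higher, mmu-miR-191-5p, is also 1 of the 2 serum reference miRNAs called higher. Over all 252, 35 (13.9%) were called lower and 16 (6.35%) higher, so that 1 of 6 red cell miRNAs is near the share of all miRNAs. The median red cell, skeletal muscle and liver levels were thus all lower in S24h than in Control, and their part in the level of miR-423 was not tested. GC content also moved with the differences across the 220 tested miRNAs with a sequence, with a slope of 0.34 on the log2 scale per 10% of GC in S24h over Control, 0.33 in S24h over S6h and -0.24 in S72h over S24h. After subtraction of the fitted line, S24h over Control was 1.06 for mmu-miR-423-5p and 0.97 for mmu-miR-423-3p, and S24h over S6h 1.62 and 1.27. This took out the overall shift of these miRNAs as well as the slope. In S24h over Control the line stood at -0.10 for the 5p arm and 0.20 for the 3p arm. In S24h over S6h it stood at -0.06 and 0.22. The part of the slope alone was not tested.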

How the data were processed

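The deposited values are whole-number read counts per mature miRNA, which the authors made by trimming adapters, aligning reads to GRCm38, keeping reads of miRNA length and counting them on miRBase, without normalization. Of 24 libraries, 6 were assigned to each group from the labels. CPM was computed from column totals. miRNAs with at least 10 CPM in at least 12 libraries (252, holding 99.7% of counts) entered 1 edgeR 4.0.16 quasi-likelihood model with TMM scaling in R 4.3.3, and a call needed a Benjamini-Hochberg adjusted p under 0.05 and 1.5-fold. DESeq2 1.42.0 was an alternative. The arm ratio was log2 of 5p over 3p counts with 0.5 added to each, compared by an exact two-sided permutation test over 924 splits (Python 3.11.15, SciPy 1.17.1); adjustment over hairpins was added after seeing the data. Intervals of the ratio come from inverting that test. The models were tested on simulated data.

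The miRNAs and the lists (serum reference, red cell, platelet, skeletal muscle, liver, leukocyte) were chosen with earlier results of these data known. Named miRNAs were both arms, list members, the 5 with the highest Pearson's r with each arm, and those sharing a seed. The authors trimmed the random adapter bases and counted reads, not molecules, and ligation can favor an arm. Positions come from GENCODE and RefSeq tables of GRCm38. Alternatives changed the scaling, filter, tool, samples in the model, GC content, replicate number and left-out libraries. No libraries were identical.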

Additional observations from a re-analysis of the deposited data

Results flagged for a closer look

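In Control, the log2 ratio of the miR-423 arms was far higher in replicate 4 than in the other mice: the gap to the next value was 0.689 of the range of the group. This library had 763 counts of mmu-miR-423-5p and 185 of mmu-miR-423-3p, a log2 ratio of 2.04 against 1.17 to 1.44 in the other Control mice. Of 12 groups of 6 values examined, 1 held such a library, and chance gives about 0.6.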

How the results depend on the processing

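Of 512 alternatives over 18 results, 504 kept their direction and their side of the threshold, or moved by less than the spread between mice. This count overstates how stable the results are. For each arm and comparison, 24 alternatives left out 1 library, many of them from groups outside the comparison, where the value mostly could not move. The tested differences of the arms started at edgeR adjusted p of 0.721 to 0.991, so they were likely to stay over the threshold. No tested difference changed sign, but the untested difference of the arm ratio in S24h over S6h, 0.10 by means, was -0.01 by medians. Scaling to the serum reference miRNAs changed mmu-miR-423-5p in S72h over Control to 0.15, in S24h over S6h to 1.22 and in S72h over S6h to 0.60, and mmu-miR-423-3p to 1.12 and 0.71 in the last 2 comparisons; upper-quartile scaling gave 1.87 for 5p in S24h over S6h. The cause was not tested. The arm ratio in S6h against Control kept its difference of -0.36 but lost the threshold with adjustment over all hairpins (exact p = 0.487) and with a block for the replicate number (exact p = 0.0625). Replicate numbers did not pair the libraries: deviations of same-numbered mice correlated from -0.09 to 0.15 in S6h and Control, with 2 of 6 pairs over 0.1, and from -0.16 to 0.08 in S72h and S24h. Leaving out 1 mouse at a time, the difference of the arm ratio in S6h against Control ran from -0.41 to -0.24. The adjusted p of the 5p arm in S6h against Control ran from 0.283 to 0.999 over the alternatives and that of the 3p arm from 0.631 to 0.999. With 6 mice per group, the spread between mice exceeded counting error in the arm ratio of every group. Over all 252 miRNAs, the count called in S72h against S24h was 1 with edgeR, 4 with DESeq2, 10 without the filter on low counts and 0 with only these groups in the model; it was 2 to 5 without S6h replicate 1 or 3, S24h replicate 2 or 6, or S72h replicate 1, 2 or 5. In S6h against Control it was 0 in all alternatives but the one without the filter, which gave 2. Neither arm was called in either comparison under any alternative run.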
